A study of Homo sapiens with 24 samples.

Results

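The subject is 6 genes of the serine/arginine-rich (SR) family of splicing factors, SRSF1, SRSF2, SRSF3, SRSF7, SRSF9 and TRA2B, taken from a table of 60668 gene rows by their Ensembl identifiers. They were chosen by their higher mRNA level after MYC activation in these same libraries, so their values in the MYC-ER line describe that choice and carry no test here. The smallest difference of a member at 8 h was a log2 value of 0.81 (SRSF7 and SRSF9). Among the 8 SR genes left out, SRSF10 was nearest below it at 0.46, and SRSF12 was at 1.43 but at -0.71 by 24 h. The changes within the parental line were tested. Since earlier results of these data were known when the members were chosen, these tests may not be fully independent of the choice.

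RNA was sequenced from MCF-10A, a line of immortalised epithelial cells of the human breast, and from MCF-10A cells of genotype MYC.ER, in which the transcription factor MYC is joined to the part of the oestrogen receptor that binds hormone. The ligand 4-hydroxytamoxifen (4-OHT) activates such a fusion after translation, so it changes the activity of the fused MYC without needing new MYC mRNA. Both lines grew in 3D on growth factor-reduced Matrigel, received 4-OHT at 1 µM for 0, 8, 24 or 48 h, and were collected on day 5, so that the 0 h group was never treated and the cultures were equally old. There were 3 libraries in each of the 8 groups (MYC-ER 0, 8, 24 and 48 h, and parental, labelled wild-type, at the same times). The parental line received the same 4-OHT and lacks the fusion. The labels do not give the promoter that drives the fusion, whether the MYC-ER line is 1 clone, or whether replicates were grown as separate cultures, so p-values measure the spread between these libraries, which may be technical.

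SR proteins bind exons through RNA recognition motifs and, through a domain rich in arginine and serine, recruit spliceosome components to nearby splice sites. Kinases of the SRPK and CLK families phosphorylate that domain, and several SR proteins also act in mRNA export, translation or decay. Many SR genes, among them SRSF2, SRSF3, SRSF7 and TRA2B, control their own level through poison exons, whose inclusion sends the transcript to nonsense-mediated decay, so a gene-level count mixes productive and unproductive transcripts. SRSF1 is known as an oncoprotein in mammary epithelium and as a gene that MYC can activate.

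The members lie on 5 chromosomes (GENCODE v29, GRCh38). SRSF1 (ENSG00000136450.13) spans chr17:58003360-58007346 and SRSF2 (ENSG00000161547.16) chr17:76734115-76737374, both on the minus strand. SRSF3 (ENSG00000112081.17) spans chr6:36594353-36605600 on the plus strand. SRSF7 (ENSG00000115875.19, chr2:38743599-38751494), SRSF9 (ENSG00000111786.9, chr12:120461668-120469793) and TRA2B (ENSG00000136527.18, chr3:185915906-185938136) are on the minus strand. Principal transcripts run from 1201 bases in SRSF9 to 4222 bases in SRSF3. Their GC content is 39.3% in SRSF3, 40.9% in SRSF7, 42.7% in TRA2B, 45.6% in SRSF2, 49.4% in SRSF1 and 52.3% in SRSF9, against a median of 49.0% over the genes tested, so that 4 members lie below that median and 2 above it.

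Because the members were listed for moving together after MYC activation, and MYC binds E-boxes as a heterodimer with MAX, the RefSeq promoters (GRCh38.p14) were searched on both strands for the E-box CACGTG and 4 variants of it. Of the 6 members 5 have a promoter in that table, and SRSF7 has a pair of start sites. The 250 bases before the start, 5′ to 3′ on the gene's strand with matches in capitals, are shown for SRSF1 (chr17:58007247-58007496, minus), SRSF3 (chr6:36594112-36594361, plus), the upstream SRSF7 start (chr2:38751495-38751744, minus), SRSF9 (chr12:120469749-120469998, minus) and TRA2B (chr3:185938015-185938264, minus).
SRSF1: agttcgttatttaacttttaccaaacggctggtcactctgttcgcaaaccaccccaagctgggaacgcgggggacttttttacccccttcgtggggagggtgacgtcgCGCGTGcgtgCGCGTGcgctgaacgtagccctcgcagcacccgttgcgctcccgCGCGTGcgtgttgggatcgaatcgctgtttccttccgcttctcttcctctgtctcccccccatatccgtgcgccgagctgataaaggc
SRSF3: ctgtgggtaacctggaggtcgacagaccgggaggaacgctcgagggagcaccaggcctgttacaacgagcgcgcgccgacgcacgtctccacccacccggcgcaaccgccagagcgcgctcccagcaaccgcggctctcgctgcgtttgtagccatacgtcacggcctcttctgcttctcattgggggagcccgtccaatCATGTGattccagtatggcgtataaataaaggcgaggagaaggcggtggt
SRSF7: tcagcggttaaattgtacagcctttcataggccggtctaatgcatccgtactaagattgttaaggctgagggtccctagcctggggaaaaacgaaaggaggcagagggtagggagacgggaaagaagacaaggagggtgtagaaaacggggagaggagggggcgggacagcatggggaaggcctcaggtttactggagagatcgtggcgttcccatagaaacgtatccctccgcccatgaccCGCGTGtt
SRSF9: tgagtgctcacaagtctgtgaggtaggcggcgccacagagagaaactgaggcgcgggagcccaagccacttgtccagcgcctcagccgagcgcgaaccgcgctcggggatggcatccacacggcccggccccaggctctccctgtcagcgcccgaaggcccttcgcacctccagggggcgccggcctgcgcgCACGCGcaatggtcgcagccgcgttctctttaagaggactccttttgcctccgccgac
TRA2B: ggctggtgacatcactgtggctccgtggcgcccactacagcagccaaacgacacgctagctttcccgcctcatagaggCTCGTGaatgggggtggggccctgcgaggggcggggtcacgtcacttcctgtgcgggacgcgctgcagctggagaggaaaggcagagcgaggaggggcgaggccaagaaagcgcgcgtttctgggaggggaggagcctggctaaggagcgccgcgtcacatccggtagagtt

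The SRSF1 promoter holds 3 copies of CGCGTG, the reverse complement of CACGCG, beginning 142, 132 and 88 bases before the start. SRSF9 holds CACGCG at 58 bases and SRSF7 holds CGCGTG at 8 bases before the upstream start. SRSF3 holds CATGTG at 50 bases, and TRA2B holds CTCGTG, the reverse complement of CACGAG, at 172 bases. The second SRSF7 window includes the same CGCGTG copy, 141 bases before its start, and an overlapping pair of CATGCG matches on opposite strands at 55 and 53 bases. None of the 6 member promoters holds the canonical CACGTG, which 7.26% of all 35116 promoters in the table hold in the same 300-base window (250 bases before and 50 after the start). Among the variants, CACGCG occurs in 11.4% of promoters, the variant CACGAG in 6.78%, the variant CATGTG in 11.1% and the variant CATGCG in 7.05%, and any of the 5 motifs in 35.8%. Every member promoter in the table holds at least 1 of the 5 motifs, as do 3 of the 9 promoters of the other SR genes. The 6 member promoters are of 5 genes, and the pair of SRSF7 windows shares a match. GC content was 55.0% to 68.3% in the member promoters, against a median of 58.7% over all promoters, and its part in the matches was not tested. The motif hits are letter matches, and binding was not measured.

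Library totals ran from 136860029 to 182438505 counts, and each member had at least 9031 counts in every library. All 6 members passed the filter on low counts, which kept 22158 genes. The libraries carried the basal mammary profile of the line. The 7 basal markers (KRT5, KRT14 and others) summed to between 10349 and 29150 CPM (counts scaled to the TMM-adjusted library total). Their sum was lower in every MYC-ER library than in any parental one. The 6 luminal markers summed to between 229 and 659 CPM, and of these PGR alone was at 0 in every library. MYC mRNA itself, whose row may include reads from the fusion, had a mean of 387 CPM (SD 8.0, n = 3) in the MYC-ER line before 4-OHT, 795 ± 1.8 after 8 h, 321 ± 8.8 after 24 h and 248 ± 4.7 after 48 h, and a mean of 463 to 532 CPM in the parental groups. Of 9 genes listed as a check of MYC activity (such as NCL, ODC1 and CAD), 9 rose at 8 h in MYC-ER cells by edgeR's quasi-likelihood test, where 32.2% of all genes did. At 24 h 7 were called higher and 2 (MYC and MAX) lower, and at 48 h 6 higher and the same 2 lower, against 30.4% and 31.2%, and 23.4% and 20.7%, of all genes. This list includes MYC itself and was chosen with earlier results of these data known, so its counts are a description.

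The MYC-ER libraries before 4-OHT stood apart in genes of other cell types, and these libraries are the reference for each MYC-ER change. The 5 fibroblast markers summed to 369 to 376 CPM in MYC-ER cells before 4-OHT, 101 to 109 after 8 h, 78.4 to 90.5 after 24 h and 120 to 129 after 48 h, against 76.7 to 132 over the parental libraries. COL1A1 and DCN made up that sum, while COL1A2 was at 0 in every MYC-ER library and PDGFRA at 0 in every MYC-ER library at 0, 8 and 24 h. The 4 endothelial markers summed to 36.8 to 42.0 CPM before 4-OHT, 1.14 to 1.43 after 8 h, 1.79 to 1.83 after 24 h and 25.3 to 26.7 after 48 h, nearly all of it KDR, and CDH5 was at 0 in every library. The 5 immune markers summed to at most 23.6 CPM, which was CD68, with CD3E at 0 throughout. The 6 luminal markers summed to 229 to 247 CPM in MYC-ER cells before 4-OHT, 615 to 659 after 8 h, 395 to 405 after 24 h and 445 to 472 after 48 h, against 254 to 433 over the parental libraries. The basal sum in MYC-ER cells was 14877 to 16535 CPM at 0 and 8 h and 10349 to 11142 at 24 and 48 h. Over the parental libraries it was 18563 to 29150. Mitochondrial transcripts took 9.24% to 9.71% of counts in MYC-ER cells at 0 h and 5.61% to 6.78% at later times. In parental cells they took 3.86% to 7.28% at 0 h, the widest range of the 8 groups, and 5.51% to 7.78% at later times. The part of these shifts in the members' values was not tested. In bulk RNA, fewer cells expressing a gene and less RNA per cell cannot be told apart.

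SRSF1, the founding SR protein, which promotes exon inclusion and weak 5′ splice sites, showed the largest of the 8 h differences among the members. In MYC-ER cells its 3 libraries held 155, 155 and 155 CPM before 4-OHT, 448, 465 and 431 after 8 h, 381, 386 and 387 after 24 h, and 250, 222 and 229 after 48 h. The 8 h libraries were all above the 24 h libraries, these above the 48 h libraries, and these above the 0 h libraries, without overlap. The mean at 8 h was 2.89-fold that at 0 h, a log2 difference of 1.53 with an SE of 0.066. In parental cells the same gene stood at 239, 303 and 253 CPM before 4-OHT, 348, 339 and 348 after 8 h, 331, 323 and 344 after 24 h, and 329, 337 and 356 after 48 h, so that the untreated parental libraries were the lowest of that line and also the most scattered.

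SRSF2, a mainly nuclear SR protein that binds exonic enhancers, stood at 148, 135 and 140 CPM in MYC-ER cells at 0 h and at 279, 287 and 282 at 8 h, which is 2.0-fold higher. It was at 269, 265 and 261 CPM at 24 h and back at 177, 180 and 175 at 48 h. The 8 h libraries overlapped none of the others. The parental libraries ran from 232 to 254 CPM before 4-OHT, 275 to 281 after 8 h, 236 to 254 after 24 h and 238 to 251 after 48 h, where the 8 h group alone lay above all the rest.

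SRSF3, the smallest SR protein and an adaptor for mRNA export, had the lowest starting level relative to the parental line. Its MYC-ER libraries held 98.1, 95.7 and 102 CPM before 4-OHT, 262, 254 and 249 after 8 h, 277, 265 and 265 after 24 h, and 157, 155 and 147 after 48 h. The mean was 2.59-fold and 2.73-fold that at 0 h after 8 and 24 h, and the 48 h libraries lay between the untreated and the earlier treated ones. Parental libraries ran only from 251 to 295 CPM over all 4 times, so every treated or untreated parental library was above each MYC-ER library at 0 h and 48 h.

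SRSF7, a close relative of SRSF3 with a zinc knuckle that likewise links splicing to export, held 77.0, 84.0 and 80.1 CPM in MYC-ER cells before 4-OHT, 140, 145 and 140 after 8 h, 141, 147 and 146 after 24 h, and 91.5, 90.6 and 88.6 after 48 h. The 8 h and 24 h libraries overlapped each other, and the 48 h libraries sat just above the untreated ones. The parental libraries ran from 136 to 165 CPM before 4-OHT, 152 to 156 after 8 h, 145 to 161 after 24 h and 148 to 161 after 48 h, with overlap between all times.

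SRSF9, a small SR protein related to SRSF1, was the only member whose MYC-ER libraries at 48 h overlapped those at 0 h. It held 59.2, 57.2 and 58.6 CPM before 4-OHT, 107, 98.2 and 101 after 8 h, 105, 101 and 98.3 after 24 h, and 60.8, 59.7 and 57.0 after 48 h. In parental cells the later groups were lower, with 95.2, 87.3 and 110 CPM before 4-OHT, 92.8, 90.5 and 95.8 after 8 h, 86.0, 74.7 and 84.8 after 24 h, and 71.6, 81.2 and 84.9 after 48 h, and every library at 24 and 48 h was below each before 4-OHT.

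TRA2B, the human homologue of the fly splicing regulator transformer-2, held 72.8, 79.0 and 74.6 CPM in MYC-ER cells before 4-OHT, 183, 183 and 173 after 8 h, 209, 210 and 204 after 24 h, and 96.4, 95.9 and 92.8 after 48 h. The 24 h libraries were the highest and overlapped none of the others. Its parental libraries held 145, 183 and 156 CPM before 4-OHT, and ran from 196 to 204 after 8 h, 192 to 197 after 24 h and 187 to 196 after 48 h. The untreated parental libraries were again the lowest and the most scattered of that line.

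**Figure D1:**
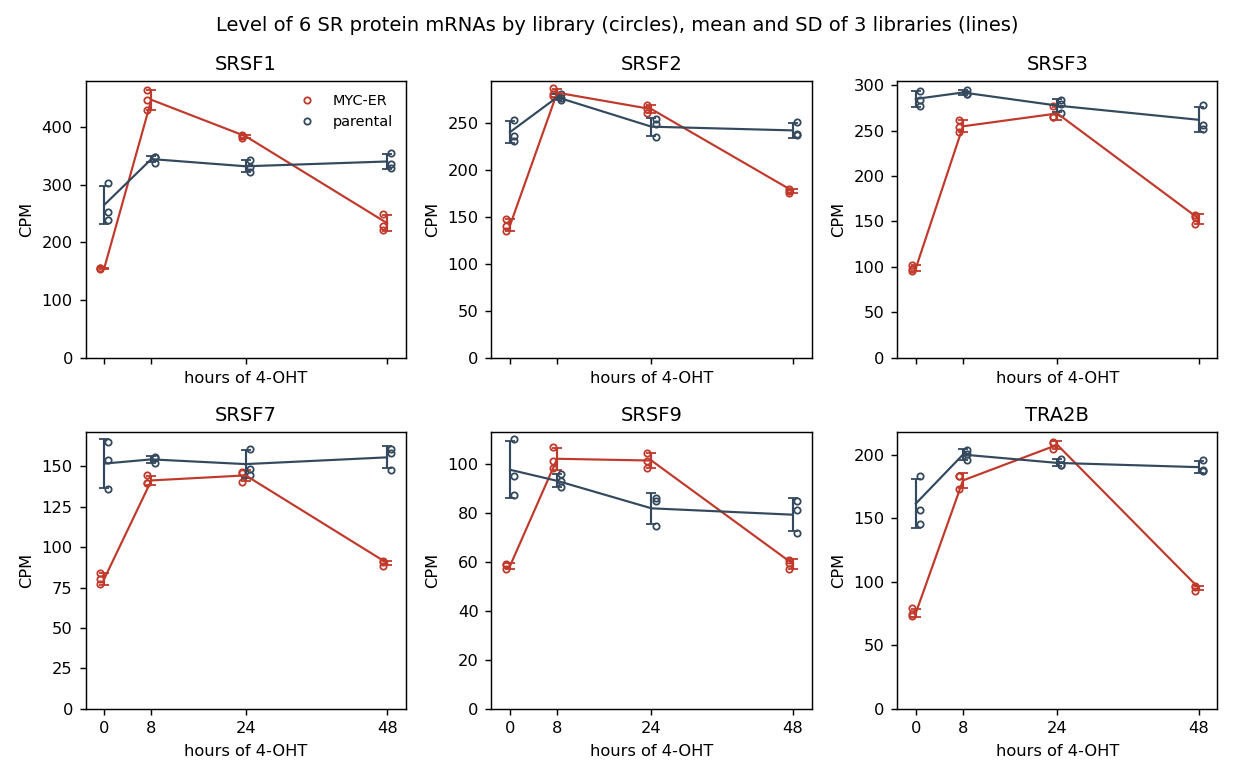
Level of each member in CPM (vertical axis, from 0) against hours of 4-OHT, with 1 circle per library and lines through the mean of 3 libraries with SD bars, MYC-ER in red and parental in dark blue. Each red curve is highest at 8 or 24 h and lower at 48 h, as for SRSF3 at 98.5, 255, 269 and 153 CPM, while the parental curves stay within a narrower range.

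Across the 6 members the median log2 difference from 0 h in MYC-ER cells was 1.13 after 8 h, 1.11 after 24 h and 0.33 after 48 h, beside medians over all genes tested of -0.10, -0.02 and 0.03. Libraries after 8 h and after 24 h were above all libraries before 4-OHT for 6 of 6 members, where 34.4% and 34.2% of all genes tested were. At 48 h this held for 5 of 6, against 31.9%. Since the members were listed for this rise, nothing is read from these counts. The largest member difference at 8 h, in SRSF1, was equalled or exceeded by 10.6% of genes tested, and the smallest, in SRSF9 (log2 0.81), by 21.3%. Under other scalings or with the GC trend removed the median at 8 h ranged from 0.99 to 1.21.

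The members differed in when they were highest. SRSF1, SRSF2 and SRSF9 had their highest mean at 8 h, and SRSF3, SRSF7 and TRA2B at 24 h. Between 8 and 24 h, TRA2B (log2 0.21) and SRSF3 (0.08) were higher without overlap between libraries, 2 of 6 where 33.4% of genes tested were, and SRSF1 (-0.22) and SRSF2 (-0.09) lower, where 31.6% were. SRSF7 (0.03) and SRSF9 (-0.01) had overlapping libraries. The direction in SRSF2 depended on the scaling and that in SRSF3 on the GC trend. Over the alternatives SRSF1 kept its sign but ran from -0.40 (GC and length trends removed) to -0.014 (library size alone), and TRA2B from 0.094 (GC trend removed) to 0.41 (library size alone). From 24 to 48 h the libraries of 6 of 6 members were lower without overlap, by log2 values from -0.58 in SRSF2 to -1.13 in TRA2B, where 31.6% of genes tested were. Of the rise from 0 h to the highest mean, 32.0% was left at 48 h in SRSF3, 26.8% in SRSF1, 25.9% in SRSF2, 15.4% in SRSF7, 14.8% in TRA2B and 1.91% in SRSF9. These shares use TMM-scaled CPM and move with the scaling: the 48 h difference from 0 h ran over the alternatives from -0.14 to 0.18 in SRSF9, so that its sign was not settled, and from 0.13 to 0.33 in SRSF7.

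Set against the parental line at the same time, the members were low in MYC-ER cells before treatment. At 0 h MYC-ER cells held 34.6% of the parental mean for SRSF3, 46.7% for TRA2B, 53.0% for SRSF7, 58.5% for SRSF1, 58.6% for SRSF2 and 59.7% for SRSF9. All MYC-ER libraries at 0 h were below all parental ones for 6 of 6 members, as they were for 32.4% of genes tested, with a median log2 difference of -0.85 over the members and 0.00 over all genes. At 8 h the means stood between 87.3% (SRSF3) and 130% (SRSF1) of parental, and at 24 h between 95.4% (SRSF7) and 124% (SRSF9). Of the 6 members, 2 (SRSF1 and SRSF9) were above the parental libraries without overlap at 8 h, where 29.4% of genes tested were, and 3 (SRSF3, SRSF7 and TRA2B) below, where 31.7% were. At 24 h SRSF1, SRSF2, SRSF9 and TRA2B were above without overlap, where 29.9% of genes were, and the other 2 overlapped. At 48 h TRA2B was lowest against parental (log2 -1.0), the other 5 stood between 58.0% (SRSF7) and 74.6% (SRSF9) of it, and 6 of 6 were below it without overlap, where 33.3% of genes tested were. These comparisons share the MYC-ER libraries on which the members were listed, so they too are a description.

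**Figure D2:**
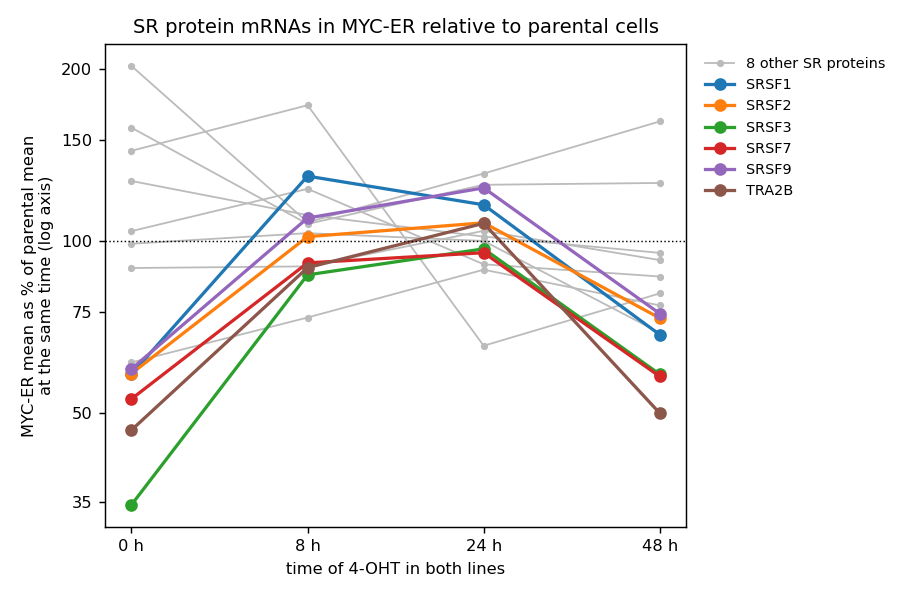
Mean level in MYC-ER cells as a percent of the parental mean at the same time (log axis), for the 6 members in colour and the 8 other SR genes in grey. The members start at 34.6% to 59.7%, reach 87.3% to 130% at 8 h and stand at 74.6% or less at 48 h.

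In the parental line, which received 4-OHT without the fusion, the members moved in both directions. SRSF1, SRSF2 and TRA2B rose at 8 h, 3 of 6 members, where 15.0% of all 22158 genes were called higher and 16.0% lower. At 24 h SRSF1 and TRA2B were called higher and SRSF9 lower, where 21.2% and 21.7% of genes were called in those directions. At 48 h SRSF1 and TRA2B were called higher and SRSF3 and SRSF9 lower, against 20.4% and 20.1%. The median member change was 0.12 after 8 h, 0.02 after 24 h and 0.02 after 48 h, beside 0.00, -0.03 and 0.00 over all genes.

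By edgeR's quasi-likelihood test with Benjamini-Hochberg adjustment over all genes, parental SRSF1 rose after 8 h by a log2 value of 0.38 (SE 0.065, adjusted p = 0.000195), after 24 h by 0.33 (adjusted p = 0.000354) and after 48 h by 0.36 (adjusted p = 0.00016). Its 3 libraries were above all untreated parental ones at each time. TRA2B rose by 0.31 after 8 h (SE 0.059, adjusted p = 0.000526), 0.26 after 24 h (adjusted p = 0.00109) and 0.24 after 48 h (adjusted p = 0.00274), also without overlap. SRSF2 rose at 8 h by 0.21 (SE 0.045, adjusted p = 0.00143) and fell between 8 and 24 h by 0.17 on the log2 scale (adjusted p = 0.0163), the 1 member called in that comparison, where 4.46% of genes were called lower. That call was lost without parental 24 h replicate 2 (adjusted p = 0.0729), 8 h replicate 1 (0.0622) or 8 h replicate 3 (0.0749). At 24 h and 48 h its change from 0 h was 0.03 and 0.01 (adjusted p = 0.585 and 0.887).

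SRSF9 fell in parental cells by 0.25 on the log2 scale at 24 h (SE 0.073, adjusted p = 0.00708) and by 0.30 at 48 h (adjusted p = 0.00213), and its 8 h change was -0.07 (adjusted p = 0.53). Without parental 0 h replicate 3, the highest library of its group, the 24 h value was -0.14 (adjusted p = 0.0993), and without parental 24 h replicate 2, the lowest of its group, it was -0.19 (adjusted p = 0.0544). SRSF3 fell by 0.12 on the log2 scale at 48 h (SE 0.045, adjusted p = 0.0361), with overlapping libraries. That call was lost without parental 0 h replicate 1 (adjusted p = 0.0617) or replicate 3 (0.293), 8 h replicate 1 (0.145), and 48 h replicate 1 (0.149) or replicate 2 (0.118), with scaling by library size alone (-0.06, adjusted p = 0.213), with no filter on low counts (0.0735) and in a fit of the parental libraries alone (0.14). SRSF7 passed the threshold at none of the times, with a 95% interval of -0.09 to 0.14 after 8 h, -0.12 to 0.11 after 24 h and -0.08 to 0.15 after 48 h. No member was called between 24 and 48 h, where 13.2% of genes were: 0 had an unadjusted p under 0.05, DESeq2 called 0, and the changes ran from -0.08 to 0.04.

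Parental changes varied with transcript composition. Across 9784 genes, which are not independent replicates, the Spearman correlation of the parental log2 change with GC content was -0.64 after 8 h, -0.68 after 24 h and -0.67 after 48 h, whereas in MYC-ER cells it was 0.02, -0.06 and 0.03. With each library's GC trend removed, SRSF1 kept its call at the 3 times (0.38, 0.35 and 0.37, adjusted p = 0.000363, 0.000529 and 0.00038). SRSF2 and TRA2B kept theirs at 8 h at smaller values (0.14 and 0.18, adjusted p = 0.0285 and 0.00542), while TRA2B at 24 and 48 h was at 0.09 and 0.05 (adjusted p = 0.138 and 0.443). The GC-poor members shifted downwards: SRSF3 was at -0.36 and -0.46 after 24 and 48 h (adjusted p = 0.00068 and 9.52e-05), and SRSF7 at -0.25 (adjusted p = 0.00427) and -0.23 (adjusted p = 0.00926). SRSF9 at 24 h was at -0.15 (adjusted p = 0.118) and at 48 h at -0.21 (adjusted p = 0.026), and with the length trend removed as well it was at 0.014 and -0.06 (adjusted p = 0.917 and 0.626). A fit of only the groups compared, with 3 libraries each and a spread of their own, called 0 of 6 members at 8, 24 or 48 h, with SRSF1 at adjusted p = 0.0584, 0.0539 and 0.0553.

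**Figure D3:**
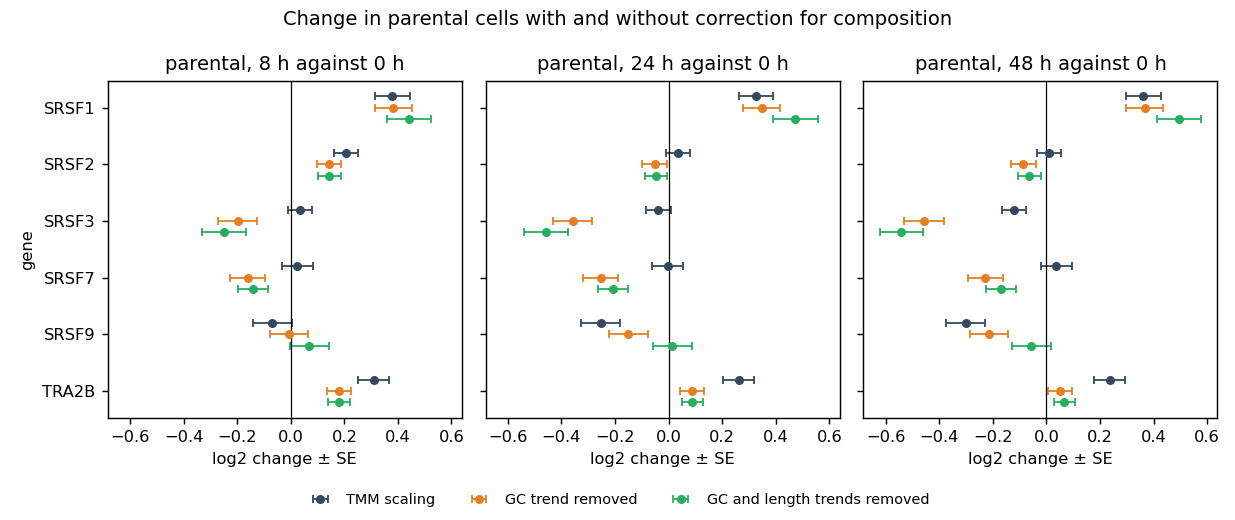
Log2 change from 0 h in parental cells with SE bars for the 6 members at 8, 24 and 48 h, after TMM scaling (dark blue), with the GC trend removed (orange) and with GC and length trends removed (green). SRSF1 stays to the right of 0 in each panel, and the GC-poor SRSF3 and SRSF7 shift to the left.

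In MYC-ER cells the same correction left the members' differences at 8 h with a median of 1.21 in place of 1.13. The difference between the lines in their change from 0 h had a median over the members of 0.91 after 8 h, 1.02 after 24 h and 0.28 after 48 h. It was largest for SRSF3 at 8 and 24 h (1.34 and 1.49) and smallest at 48 h for TRA2B (0.10). At 48 h the 95% interval included 0 for TRA2B (-0.07 to 0.26) and for SRSF7 (-0.03 to 0.29). The order at 48 h depended on composition: with the GC trend removed TRA2B was at 0.26 and SRSF1 and SRSF9 at 0.15 each, and with the length trend removed as well SRSF1 was at -0.032 and SRSF9 at -0.082.

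Per kb of the principal transcript, SRSF1 was the most abundant member in each of the 8 groups, at 102 CPM per kb in MYC-ER cells before 4-OHT, 296 after 8 h, 254 after 24 h and 154 after 48 h, and at 175 to 228 in the parental groups. SRSF2 came next and SRSF9 after it in mean in every group, though at 0 h in MYC-ER cells SRSF2 (48.9 ± 2.2) and SRSF9 (48.5 ± 0.86) were within their spread, as they were in parental cells at 0 h (83.4 ± 4.0 and 81.3 ± 9.7). In parental cells at 24 h SRSF9 (68.1 ± 5.2) was within its spread of SRSF3 and TRA2B but not of SRSF7 (60.9 ± 3.4), and at 48 h SRSF9 (66.0 ± 5.7) was within its spread of all 3 members below it. The order of the other 3 changed with time. In MYC-ER cells at 0 h SRSF7 (32.3 ± 1.4) was above TRA2B (25.6 ± 1.1) and SRSF3 (23.3 ± 0.74), whereas at 24 h TRA2B (70.4 ± 1.0) was above SRSF3 (63.7 ± 1.6) and SRSF7 (58.1 ± 1.4). At 8 h TRA2B (60.9 ± 2.0) and SRSF3 (60.4 ± 1.5) did not differ beyond their spread. This order, and the shares below, rest on 1 transcript length per gene. In CPM SRSF3 (285) was above SRSF1 (265) in parental cells at 0 h, and SRSF9 was the lowest member in every group.

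The 6 members together made up 46.6% ± 0.35 (SD, n = 3) of the per-kb level of 14 SR genes in MYC-ER cells before 4-OHT, 70.8% ± 0.50 after 8 h, 68.2% ± 1.0 after 24 h and 53.3% ± 1.0 after 48 h. In parental cells the share was between 65.5% ± 1.9 and 69.3% ± 0.36. The summed level of the members went from 281 to 657 CPM per kb between 0 and 8 h in MYC-ER cells, and that of the 8 others from 322 to 271. The mean share was above the parental means at 8 h, among them at 24 h and below them at 0 and 48 h.

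**Figure D4:**
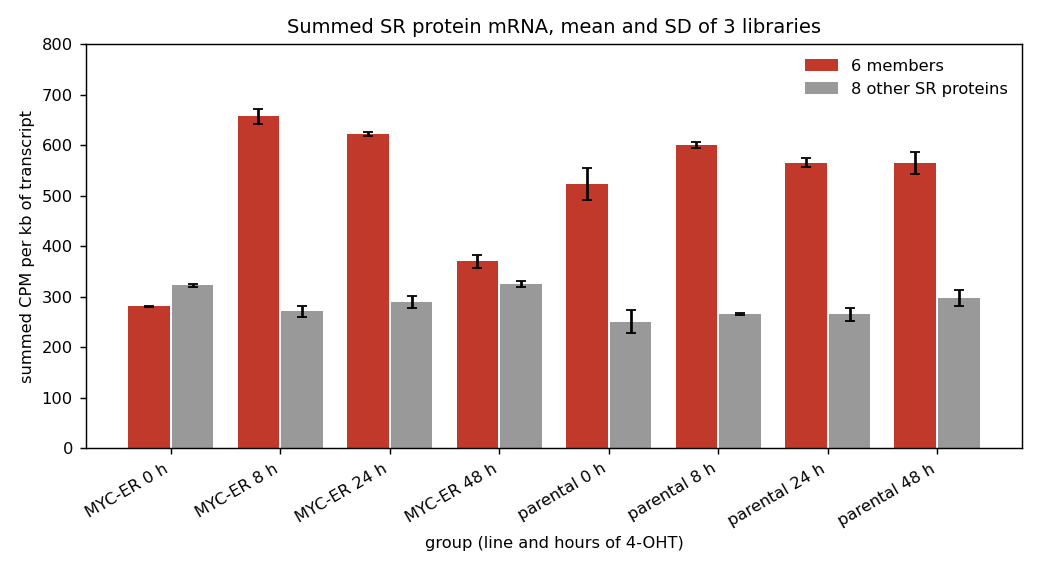
Summed level in CPM per kb of transcript (axis from 0) of the 6 members (red) and the 8 other SR genes (grey) in the 8 groups, as mean and SD of 3 libraries. The red bars are lowest in MYC-ER cells at 0 h (281) and 48 h (370), and the grey bars stay between 250 and 325.

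The 8 SR genes left out of the list moved in different directions in MYC-ER cells, and their counts reflect that they were left out. At 8 h 4 were called higher and 3 lower, at 24 h 3 and 4, and at 48 h 1 and 3, with 32.2% and 35.4%, 30.4% and 31.2%, and 23.4% and 20.7% of all genes called higher and lower. SRSF5, first known as an insulin-induced gene of liver cells, was at 311 CPM before 4-OHT, 164 after 8 h, 197 after 24 h and 314 after 48 h, the reverse of the members' course (8 h log2 -0.92, SE 0.079). SRSF6 fell at each time, by 0.15, 0.28 and 0.20 on the log2 scale. TRA2A, the paralogue of TRA2B, rose by 0.24, 0.52 and 0.31, and SRSF10, a splicing repressor when dephosphorylated, rose by 0.46 and 0.39 at 8 and 24 h. SRSF12 was scarce, going from 1.5 to 4.05 CPM by 8 h. In parental cells 2, 3 and 5 of the 8 were called higher at 8, 24 and 48 h and 0 lower, where 15.0%, 21.2% and 20.4% of all genes were called higher and 16.0%, 21.7% and 20.1% lower, with SRSF10 higher at each time (0.40, 0.37 and 0.47).

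**Figure D5:**
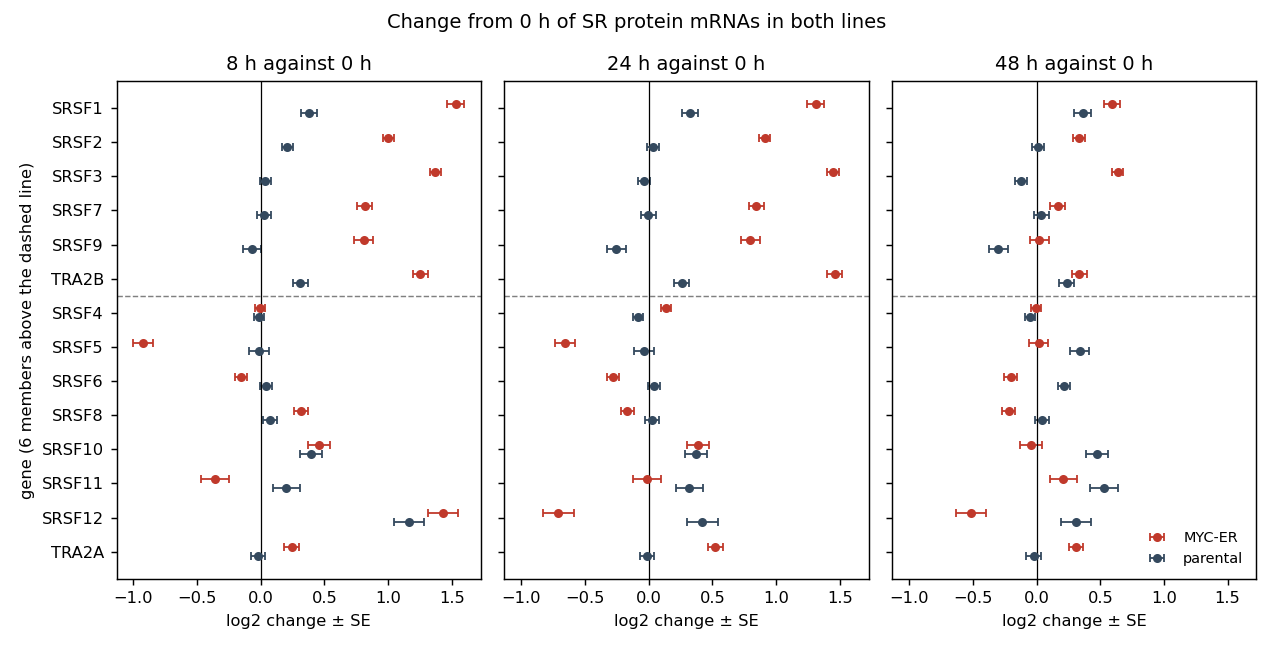
Log2 change from 0 h with SE bars at 8, 24 and 48 h for the 6 members (above the dashed line) and the 8 other SR genes, MYC-ER in red and parental in dark blue. At 8 and 24 h the red points of the members lie between 0.80 and 1.53, and those of the other genes fall on both sides of 0.

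The kinases and importins that act on SR proteins moved in both directions in MYC-ER cells. Of 10 listed, 3 were called higher and 5 lower after 8 h (32.2% and 35.4% of all genes), 4 and 4 after 24 h (30.4% and 31.2%), and 2 and 3 after 48 h (23.4% and 20.7%), most of these counts being near the shares over all genes. SRPK1, which phosphorylates SR proteins in the cytoplasm, rose from 115 to 244 CPM after 8 h (log2 1.08, SE 0.063) and to 166 after 24 h, and after 48 h had fallen to 92.8. Its paralogue SRPK2 fell by 0.27 on the log2 scale at 8 h, and DYRK1A, another kinase of SR proteins, by 0.66. TNPO3, the importin that carries phosphorylated SR proteins into the nucleus, rose by 0.68 at 8 h, and TNPO1 by 0.70. The nuclear kinases CLK1 and CLK4 went the other way, CLK1 from 147 to 42.8 CPM (log2 -1.78, SE 0.074) and CLK4 from 66.0 to 21.5 (log2 -1.62) at 8 h, and they stood at 163 and 74.5 CPM at 48 h (adjusted p = 0.0921 and 0.086 against 0 h). In parental cells CLK1 was at 52.8, 52.7, 56.2 and 74.6 CPM at the 4 times, and of the 10 genes 2, 5 and 6 were called higher, against 15.0%, 21.2% and 20.4% of all genes, and 1, 3 and 0 lower, against 16.0%, 21.7% and 20.1%.

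Of 18 SR-related proteins, splicing factors with arginine-serine repeats that are not classical SR proteins, 5 rose and 9 fell after 8 h in MYC-ER cells, 10 rose and 5 fell after 24 h, and 2 rose and 6 fell after 48 h. Over all genes 32.2% rose and 35.4% fell after 8 h, 30.4% and 31.2% after 24 h, and 23.4% and 20.7% after 48 h. PNISR fell from 246 to 83.5 CPM at 8 h (log2 -1.56), LUC7L3, a U1 snRNP-associated factor, from 229 to 107 (-1.10), and SRRM2, a scaffold of nuclear speckles, by 1.22 on the log2 scale. The small U2AF subunit U2AF1 rose from 24.4 to 46.1 CPM (log2 0.92). In parental cells the counts were 0 and 5 (all genes 15.0% and 16.0%), 3 and 5 (21.2% and 21.7%), and 8 and 5 (20.4% and 20.1%).

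Among 11 mRNA export and exon junction partners, 7 rose and 3 fell after 8 h in MYC-ER cells, 6 and 2 after 24 h, and 2 and 4 after 48 h, beside 32.2% and 35.4%, 30.4% and 31.2%, and 23.4% and 20.7% of all genes. ALYREF, an export adaptor, rose from 18.3 to 60.4 CPM (log2 1.72, SE 0.093), EIF4A3, the helicase of the exon junction complex, from 58.6 to 133 (log2 1.18), and NXT1, a subunit of the export receptor, from 11.8 to 30.8 (log2 1.38). NXF1, the other subunit of that receptor and a partner of SRSF3 and SRSF7, fell from 185 to 101 CPM at 8 h and to 88.2 at 24 h. In parental cells 1 rose and 1 fell after 8 h, 3 and 3 after 24 h, and 2 and 4 after 48 h, beside 15.0% and 16.0%, 21.2% and 21.7%, and 20.4% and 20.1% of all genes, ALYREF falling by 0.52 on the log2 scale after 48 h.

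Of the 8 hnRNP proteins listed, which often act against SR proteins at the same exons, 7 rose and 0 fell at 8 and at 24 h in MYC-ER cells, and 6 rose and 1 fell at 48 h. The shares of all genes that rose were 32.2%, 30.4% and 23.4%, and of those that fell 35.4%, 31.2% and 20.7%. HNRNPA2B1 rose by 1.21, 1.5 and 0.38 at the 3 times, and PTBP1 by 0.74, 0.97 and 0.19. HNRNPA1, the classical antagonist of SRSF1, rose by 0.64, 1.33 and 1.28, with the 48 h value close to that at 24 h. The list's median was 0.89 and 0.99 after 8 and 24 h. Like the other gene lists it was chosen with earlier results of these data known, so its counts are a description. In parental cells 4, 1 and 1 of the 8 were called higher, against 15.0%, 21.2% and 20.4% of all genes, and 0, 2 and 1 lower, against 16.0%, 21.7% and 20.1%. Of 10 nonsense-mediated decay factors, 5 rose and 4 fell after 8 h in MYC-ER cells, 3 and 3 after 24 h, and 1 and 5 after 48 h, with a median of 0.04 after 8 h. At 24 h these counts were near the shares over all genes (30.4% and 31.2%), and at 8 and 48 h those shares were 32.2% and 35.4%, and 23.4% and 20.7%. UPF1, the central helicase of that pathway, rose by 0.75 at 8 h. In parental cells 2, 3 and 3 were called higher and 2, 2 and 3 lower, near the shares of all genes (15.0%, 21.2% and 20.4% higher, 16.0%, 21.7% and 20.1% lower).

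The genes most like each member in their course over the 24 libraries were sought among 9448 protein-coding genes of at least 10 CPM on average, by Pearson's r of log2 CPM. These values describe libraries that share 8 groups and 1 scaling. SRSF1 was nearest to POLR3G, a subunit of RNA polymerase III (r = 0.98), SRSF2 to HPRT1, a purine salvage enzyme (0.99), and SRSF3 to TUBA1B, an alpha-tubulin (0.99). SRSF7 was nearest to TUBG1, gamma-tubulin (0.98), SRSF9 to SIVA1, an apoptosis regulator (0.98), and TRA2B to SUV39H2, a histone methyltransferase (0.98). E2F1, the cell cycle transcription factor, was among the 5 nearest to SRSF3. No member was among the 5 nearest of another. Over the 15 pairs of members r ran from 0.79 (SRSF1 with SRSF9) to 0.96 (SRSF3 with SRSF7), with a median of 0.90, and with MYC mRNA from 0.47 to 0.57. By r with SRSF1, SRSF9 ranked 1031 among the candidates. With the left-out SR genes among the candidates, r of the members ran from -0.90 (SRSF3 with SRSF5) to 0.83 (SRSF3 with TRA2A). Since the members were listed for their rise in these libraries, nothing is read from their r with each other.

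Some member spans overlap other genes, and how the counting treated such reads is not given in the sources used here. ENSG00000266086, a protein-coding row on the strand of SRSF1, went from 42.5 CPM before 4-OHT to 8.64 after 8 h, 17.9 after 24 h and 30.8 after 48 h in MYC-ER cells, opposite to SRSF1. The sum of both rows was 2.31-fold that at 0 h after 8 h, against 2.89-fold for SRSF1 alone. MFSD11, on the opposite strand to SRSF2, went from 29.2 to 14.3 CPM at 8 h, and their sum was 1.74-fold higher against 2.0-fold. GATC, on the opposite strand to SRSF9, was at 65.9 CPM at 0 h, above SRSF9 (58.3), and at 77.7 at 8 h, below it (102), and their sum was 1.45-fold higher against 1.75-fold. Rows of pseudogenes of the members held at most 0.0195 CPM in any library. At 48 h the sum of SRSF9 and GATC was 0.950-fold that at 0 h, while SRSF9 alone went from 58.3 to 59.1 CPM with overlapping libraries. The sums allow for member reads counted to the other row. They do not allow for reads of the other gene counted to the member, which was not tested. The values of SRSF1, SRSF2 and SRSF9 are therefore uncertain to an extent that was not measured.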

How the data were processed

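The authors deposited raw counts for each gene in 24 libraries, whole numbers with no normalisation. Per the submitters' processing notes Trimmomatic 0.39, STAR, StringTie 2.1.3b and GRCh38 were used, in an order and with roles that the notes do not give. The annotation, the strand setting and the treatment of reads matching several genes are not given in the sources used here. Per the labels' protocols the libraries were poly(A)-selected and stranded, with 150-base paired-end reads and 3 libraries per lane. The lanes of single libraries and a spike-in are not named, so changes are relative to each library's TMM-adjusted total.

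The members and gene lists were chosen with earlier results of these data known. Genes were filtered with filterByExpr, scaled by TMM and fitted with 1 mean per group over all 24 libraries in edgeR 4.0.16 (R 4.3.3), with its two-sided quasi-likelihood test and Benjamini-Hochberg adjustment over 22158 genes at a threshold of 0.05. CPM are relative to TMM-adjusted totals, with a prior count of 2 on the log2 scale. Differences on the log2 scale are fitted values. Library totals ran from 136860029 to 182438505 counts, and a count of 0 in the smallest library allows up to 0.0219 CPM (3 counts, counting error only, since PCR copies were not marked).

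Named genes are the members, genes of the written lists (markers included), for each member the 5 genes of highest Pearson r, pseudogenes by symbol and genes overlapping a member. Spans, GC content and length come from GENCODE v29 (98.0% of genes tested have them), from 1 transcript per gene (APPRIS principal where marked, otherwise basic, then longest), and promoters from RefSeq. Alternatives were other scalings, filters, DESeq2 1.42.0, a fit of only the groups compared, a replicate block, GC trends removed (lowess, span 0.3) and leaving out each library. Removing the length trend too, and a fit of the parental libraries alone, were chosen after seeing the data. The fitting script was tested on simulated data.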

Additional observations from a re-analysis of the deposited data

Results flagged for a closer look

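For 4 values every treated MYC-ER library moved one way from the 0 h mean of its line and every treated parental library the other way, and in each case the difference between the lines was not tested, because the members were listed for their rise in MYC-ER cells. SRSF3 differed at 24 h by a mean log2 CPM value of 1.45 in MYC-ER cells and -0.04 in parental cells, and at 48 h by 0.64 and -0.12. SRSF9 differed at 8 h by 0.81 in MYC-ER cells and -0.06 in parental cells, and at 24 h by 0.80 and -0.25. With GC and length trends removed the parental change of SRSF9 was 0.068 at 8 h and 0.014 at 24 h, the same direction as in MYC-ER cells. The small parental values at 8 h for SRSF9 and at 24 h for SRSF3 did not pass edgeR's threshold (adjusted p = 0.53 and 0.546), and the groups are too small (3 libraries) for a check of single outlying libraries.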

How the results depend on the processing

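Each comparison was recomputed under 12 alternatives and with each of the 24 libraries left out, where it applied. The median member difference in MYC-ER cells at 8 h against 0 h was 1.04 with library size alone, 0.99 with the upper quartile, 1.21 with the GC trend removed and 1.21 with the replicate block and the GC trend removed, and at 24 h it was 1.23 with library size alone, 1.15 in a fit of only the groups compared and 1.05 with GC and length trends removed. At 48 h it was 0.49 with library size alone, and from 24 to 48 h it was -0.67 with the upper quartile. From 8 to 24 h it was 0.22 with library size alone, 0.12 with the upper quartile, -0.091 with the GC trend removed, -0.091 with the replicate block and GC, and -0.11 with GC and length, and SRSF2 reversed to 0.11 with library size alone and 0.012 with the upper quartile and SRSF3 to -0.047 with the GC trend removed and -0.046 with the replicate block as well. Library size alone moved the median of all genes by 0.21 in that comparison. Against parental, the median was -0.98 at 0 h with the GC trend removed and -0.975 with the replicate block as well. At 8 h it was -0.13 with library size alone, -0.093 with the upper quartile, and reversed to 0.0323 with the GC trend removed, 0.0322 with the replicate block and GC, and 0.0404 with GC and length. It was 0.23, 0.21 and 0.14 at 24 h with library size alone, the upper quartile, and GC and length, and -0.52 at 48 h with either of the first pair. The difference between the lines in the 8 h change was 1.11 with the GC trend removed, 1.11 with the replicate block and GC, and 1.05 with GC and length. At 48 h it reversed under GC and length to -0.032 in SRSF1 and -0.082 in SRSF9, and in TRA2B it ran over the alternatives from -0.0030 to 0.26. The cause was not tested.

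Over all genes, a fit of only the groups compared called 628 higher and 824 lower in parental cells at 8 h against 3319 and 3551, 2492 and 2431 at 24 h against 4698 and 4805, and 1637 and 1637 at 48 h against 4515 and 4463, and a fit of the parental libraries alone called 1967 and 2257 at 8 h. Between 8 and 24 h these fits called 2603 and 1976, and 232 and 178, against 1436 and 988, where DESeq2 called 1609 lower and a fit with no filter 630. Between 24 and 48 h the parental libraries alone gave 688 and 786 against 1426 and 1501, and removing the GC trend gave 2330 lower, or 2577 with the length trend, which also left 2930 higher at 48 h. With library size alone 73.8% of MYC-ER calls at 48 h were higher, against 53.0%, and 67.8% between 8 and 24 h, against 51.2%. Against parental it was 60.7% at 24 h and 59.8% at 48 h (58.4% and 59.7% with the upper quartile), against 47.6% and 48.2%, and 63.5% against 52.5% for the line difference in the 48 h change. The upper quartile gave 46.3% in parental cells between 8 and 24 h, against 59.2%, and 60.6% between 24 and 48 h, against 48.7%. Parental member calls fell to 0 of 6 at 8, 24 and 48 h in a fit of only the groups compared, for a cause that was not tested. For SRSF1 at 8 h the change was 0.38 in both fits, with an SE of 0.065 in the main fit and 0.0997 in the other. The parental comparisons at 8, 24 and 48 h share the same 0 h libraries, so they are not independent of each other. Between 8 and 24 h 2 members were called with library size alone and 2 in the fit of only the groups compared, and 0 in a fit of the parental libraries alone. With GC and length trends removed SRSF3 at 8 h was -0.25 (edgeR, adjusted p = 0.0275), SRSF9 at 24 h 0.014 and SRSF7 at 48 h -0.17, and SRSF7 at 48 h was -0.23 with the GC trend removed, with or without the replicate block. Leaving out each library in turn, parental calls were 3 to 3, 2 to 3 and 3 to 4 at 8, 24 and 48 h, 0 to 2 between 8 and 24 h and 0 to 0 between 24 and 48 h. The MYC-ER medians were 1.11 to 1.14, 1.09 to 1.13 and 0.32 to 0.34 at 8, 24 and 48 h, 0.0022 to 0.02 from 8 to 24 h and -0.78 to -0.73 from 24 to 48 h. Against parental they were -0.92 to -0.81, -0.06 to -0.03, 0.09 to 0.12 and -0.70 to -0.62 at 0, 8, 24 and 48 h, and the line differences in change 0.88 to 0.96, 0.98 to 1.06 and 0.20 to 0.32.

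The replicate numbers did not pair the libraries: over 84 same-numbered pairs the correlation of deviations ran from -0.08 to 0.09. The replicate block alone left each count of parental member calls on the main side of the criterion, with SRSF1 at 8 h at 0.38 (adjusted p = 0.000398).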
